A study of Ovis aries with 13 samples.

Results

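The insulin-like growth factor (IGF) family was followed in the left ventricle of sheep hearts around birth, through every probe of the array whose gene symbol starts with IGF. The symbol was the upper-case name in the array files or the gene that the RefSeq table pairs with the probe's accessions. This took 10 of the 854 genes that the array names, read by 19 of its 15008 probes: the ligands IGF1 and IGF2, the receptors IGF1R and IGF2R, and the binding proteins IGFBP1 to IGFBP6. Each animal was hybridised to its own 1-colour Agilent array. The fetal group held 6 animals at gestational day 142, 2 females and 4 males. The newborn group held 7 lambs, 4 females and 3 males, whose age label reads postnatal day 1 while the protocol speaks of the day of birth. No treatment, genotype or breed is given in the labels, and the samples are whole pieces of ventricle. Both groups were on each of 2 slides: slide 1 carried 4 fetuses and 3 newborns, and slide 2 carried 2 fetuses and 4 newborns.

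IGF1 and IGF2 are secreted growth factors that signal mainly through IGF1R, a receptor tyrosine kinase that acts on the PI3K-AKT and MAPK routes. IGF2R, the cation-independent mannose-6-phosphate receptor, binds IGF2 and carries it to lysosomes, and in many mammals the IGF2 and IGF2R genes are imprinted. The binding proteins hold IGFs in blood and tissue and can limit or prolong their action, and proteases such as PAPPA release IGF from some of them. IGF2 is known as the main IGF of fetal life, whereas IGF1 is driven by growth hormone after birth.

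The array reads each transcript through probes of 60 bases. The probes below read IGF2, IGF2R and IGFBP5, the genes that fell, or IGF1R, whose probes disagree with each other. They are printed 5′ to 3′ as the array files give them, and the other probe of IGF2, at base 1147, is left out. The base number is the probe's start in the transcript record that the files name for it. The files list the probes as unmapped on the genome. Capitals mark the only base of a probe that its neighbour, shifted by 1 base, does not share.
IGF2, base 583: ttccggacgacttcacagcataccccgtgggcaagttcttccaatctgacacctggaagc
IGF2R, base 455: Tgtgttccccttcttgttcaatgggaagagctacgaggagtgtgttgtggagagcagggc
IGF2R, base 456: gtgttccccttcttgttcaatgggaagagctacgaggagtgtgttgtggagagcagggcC
IGFBP5, base 305: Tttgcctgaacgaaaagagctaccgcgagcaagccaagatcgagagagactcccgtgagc
IGFBP5, base 306: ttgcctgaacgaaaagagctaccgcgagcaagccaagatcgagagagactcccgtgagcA
IGF1R, base 5: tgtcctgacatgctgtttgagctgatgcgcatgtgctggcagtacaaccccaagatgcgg
IGF1R, base 387: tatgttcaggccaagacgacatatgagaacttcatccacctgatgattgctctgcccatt
Of the 19 probes, 12 form 6 such pairs, in IGF2R, IGFBP1, IGFBP2, IGFBP4, IGFBP5 and IGFBP6. The members of a pair share 59 bases, so they read the same stretch of transcript and are close to repeat measurements of it. The probes of IGF2, 564 bases apart in the same record, share no stretch of that kind. Nor do those of IGF1R, whose start bases are counted in different transcript records and give no distance between them. Among 196 pairs of probes from different IGF genes the longest run of bases in common was 9. These pairs include the probes named LOC780503 and M6P/IGF2R, which lie outside the naming rule and are described below.

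Levels are given as the log2 of the processed signal relative to the 75th percentile of the array, so a value of 0 lies at that percentile. They serve to compare animals at 1 probe. They do not rank genes, since probes differ in how strongly they bind. The 75th percentile was 219 to 367 signal units on the 13 arrays, 8.77 to 13.6 times the median background, and 62.7% to 71.4% of the probes were well above background. Arrays within a group correlated at 0.960 to 0.991. On the first principal component the fetal arrays lay between -29.1 and -20.4 and 6 of the newborn arrays between 10.06 and 35.1, while newborn 6 lay at -8.99. Identity of the tissue was checked with myoglobin (MB), the only 1 of 20 heart muscle markers that the array names, which skeletal muscle expresses too. MB was bright on every array, at 8.74 to 9.20 in fetuses and 8.02 to 9.12 in newborns, and did not pass between the groups (log2 change -0.34, adjusted p = 0.139). Of the 19 IGF probes, 16 were well above background on all 13 arrays, and none was saturated on any. The other 3, all of IGFBP1, were not above it on any array.

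In newborn ventricles IGF2, IGF2R and IGFBP5 were lower than in fetal ventricles, and IGF1 and IGFBP4 were higher. The largest change was in IGFBP5, which was 2.97-fold lower, followed by IGF2, which was 1.97-fold and 2.11-fold lower at its separate probes. The rises were smaller, 1.47-fold for IGF1 and 1.33-fold for the brighter probe of IGFBP4. IGF1R, IGFBP2, IGFBP3 and IGFBP6 did not pass the test at any of their probes within the family. Every comparison is newborn minus fetal, tested with limma over 10258 probes at a Benjamini-Hochberg adjusted p of 0.05.

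By that test 9 of the 16 tested probes passed, which is 56.25%, against 23.1% of all tested probes. With normexp correction on the background of each spot, 2 of the 16 passed, both of IGFBP5, and 48 of all tested probes. Lower in newborns were 6 member probes, against 11.1% of all tested probes, and 3 were higher, against 12%. Counted by the brightest probe of each gene, 5 of 9 genes passed, 3 lower and 2 higher. Of the 561 named genes tested, counted the same way, 24.4% passed, 50 lower and 87 higher. Fetal and newborn values did not overlap at 6 of the 16 probes, against 6.89% of all tested probes. The median change was -0.39 over the 16 member probes and 0.03 over all tested probes, and the median size of a change without its sign was 0.45 and 0.24. The pairs of near-identical probes enter these counts as 2 each.

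**Figure D1:**
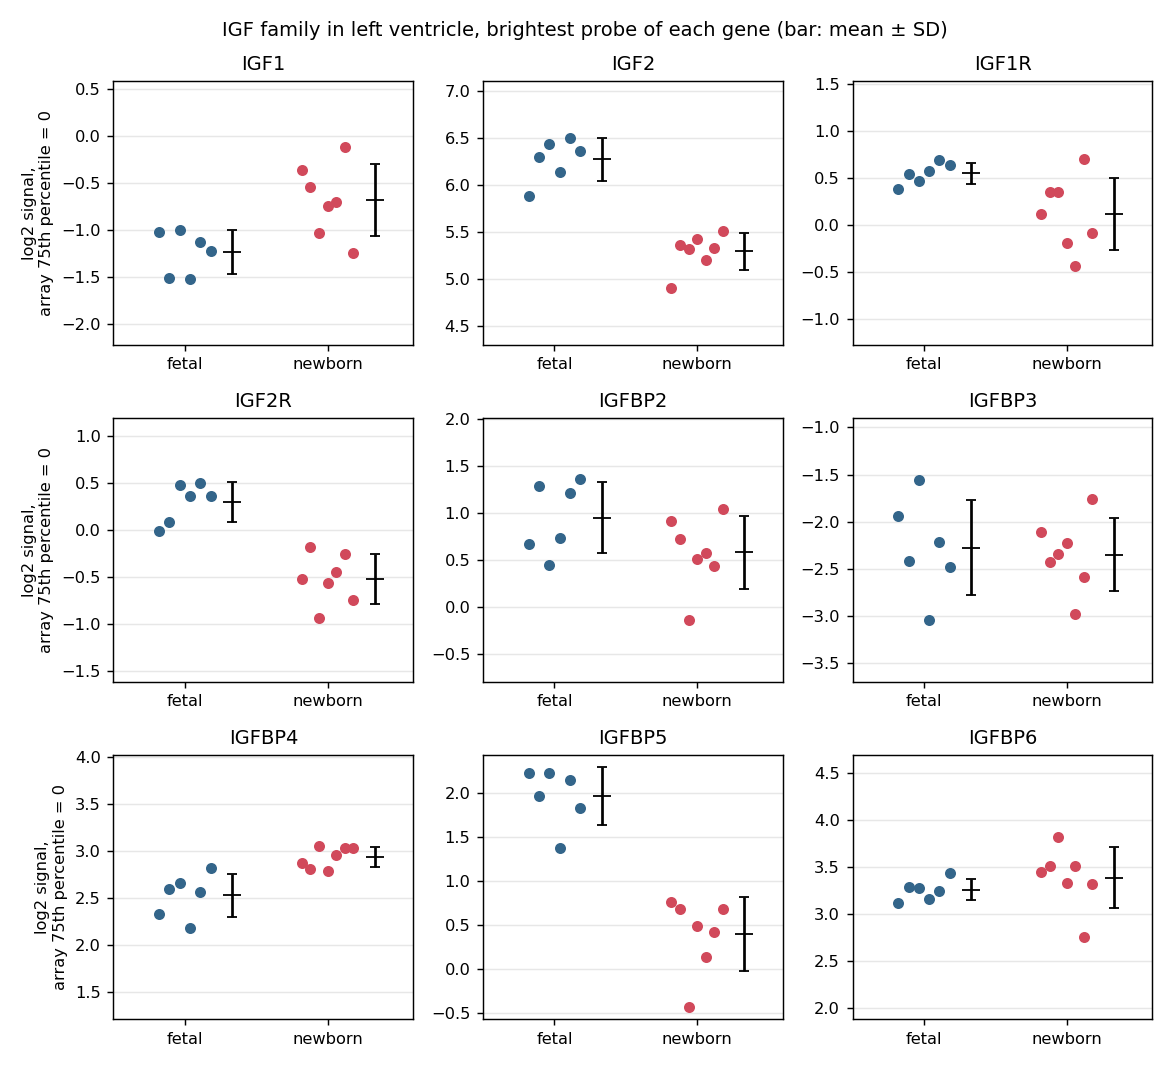
Log2 signal relative to the array's 75th percentile (y axis) for the brightest tested probe of each of the 9 measured genes, in fetal and newborn left ventricle, with 1 point for each animal and the bar at the mean ± SD. Fetal and newborn points stand apart for IGF2, IGF2R and IGFBP5, whereas they overlap for the other 6 genes.

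Among the ligands, IGF2 fell. At the brighter probe, base 1147, fetal levels ran from 5.89 through a median of 6.33 to 6.51, and newborn levels from 4.91 through 5.33 to 5.52. All 7 newborn animals were below all 6 fetuses. The mean went from 6.27 ± 0.226 (SD, n = 6) to 5.30 ± 0.197 (SD, n = 7), a log2 change of -0.98 (SE 0.122, limma adjusted p = 2.4e-04). The change was -0.998 within slide 1 and -1.06 within slide 2 (adjusted p = 0.0288 and 0.0673). With normexp on the background of each spot it was -0.95 and did not pass (adjusted p = 0.178), nor did the other IGF2 probe (-0.98, adjusted p = 0.0861).

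The probe at base 583 of IGF2, printed above, gave the same order of the groups from another part of the transcript. Fetal levels were 3.01 to 3.92 with a median of 3.77, and newborn levels 2.27 to 2.75 with a median of 2.65. Again 7 of 7 newborn animals were below every fetus. The mean went from 3.67 ± 0.342 (SD, n = 6) to 2.59 ± 0.168 (SD, n = 7), a change of -1.08 (SE 0.143, adjusted p = 4.5e-04). Fetal 1 was the lowest fetus at both probes, at 3.01 and 5.89. The difference between the probes varied over the 13 arrays with an SD of 0.129 on the log2 scale, and of 0.156 over the fetuses alone.

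IGF1, read by a single probe at base 520, rose. Fetal levels lay between -1.52 and -1.01 with a median of -1.18, and newborn levels between -1.25 and -0.12 with a median of -0.70. The groups overlapped, since newborn 3 and newborn 7 lay at -1.03 and -1.25, within the fetal range, while the other 5 newborn animals were above all fetuses. The mean was -1.24 ± 0.230 (SD, n = 6) in fetuses and -0.68 ± 0.382 (SD, n = 7) in newborns. The log2 change was 0.56 (SE 0.169, 95% interval 0.20 to 0.92, limma adjusted p = 0.0294). Within slides 1 and 2 it was 0.62 and 0.47, where it did not pass alone (limma adjusted p = 0.135 and 0.395). The call was lost without fetal 2 (0.50, adjusted p = 0.0646), without fetal 4 (0.50, adjusted p = 0.0618) or without newborn 2 (0.53, adjusted p = 0.0526). It was lost as well in the authors' series matrix (0.33, adjusted p = 0.0517) and with either normexp background correction.

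Of the receptors, IGF2R fell at both of its near-identical probes. At base 456 fetal levels were -0.01 to 0.50 with a median of 0.36, and newborn levels were -0.93 to -0.18 with a median of -0.52. Each newborn animal was below each fetus. The mean went from 0.30 ± 0.209 (SD, n = 6) to -0.52 ± 0.261 (SD, n = 7), a change of -0.82 (SE 0.133, adjusted p = 0.0014), or 1.76-fold lower. It was -0.77 within slide 1 and -0.94 within slide 2, where it did not pass alone (adjusted p = 0.0748 and 0.109), and -0.59 with normexp on the background of each spot (adjusted p = 0.0911). At base 455 the change was -0.75 (SE 0.162, adjusted p = 0.0054), and 5 of 7 newborn animals were below every fetus. A further probe lies at base 3660 of a record that the files name M6P/IGF2R, outside the naming rule. It differed by -0.45 (SE 0.196, adjusted p = 0.113) at levels of -2.89 to -2.52 in fetuses and -3.78 to -2.45 in newborns, so the groups overlapped there.

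The probes of IGF1R, the signalling receptor, did not move together. At base 387 fetal levels were 0.38 to 0.68 with a median of 0.56, and newborn levels -0.44 to 0.69 with a median of 0.11. In this set 6 of 7 newborn animals were below all fetuses, and newborn 6, at 0.69, was above them all. The change was -0.43 (SE 0.157, 95% interval -0.77 to -0.10, adjusted p = 0.0587) and did not pass. Without newborn 6 it was -0.53 and passed (adjusted p = 0.0099). At base 5 levels were -0.79 to -0.11 in fetuses and -0.80 to 0.06 in newborns, a difference of 0.07 (SE 0.159, 95% interval -0.27 to 0.41, adjusted p = 0.762), which turned to -0.01 without fetal 1. The probe at base 5 differed by 0.39 within slide 1 and by -0.29 within slide 2, and the probe at base 387 by -0.22 and -0.66. Over the 13 arrays the correlation of these probes was -0.02, against 0.982 for the separate probes of IGF2. A probe named LOC780503, which the array files describe as an IGF-I receptor, is not taken by the naming rule, since neither its name nor a RefSeq match of its accessions starts with IGF. It differed by -0.05 (SE 0.153, adjusted p = 0.821). The correlation of LOC780503 was 0.721 with the probe at base 5 and 0.447 with that at base 387.

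**Figure D2:**
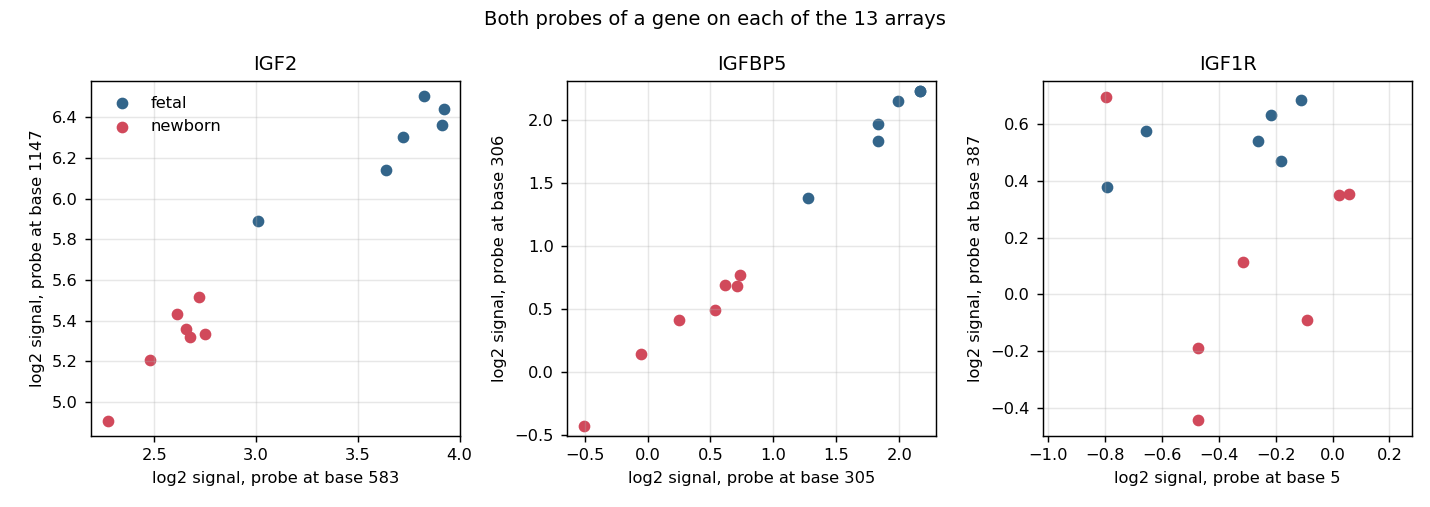
Log2 signal at 1 probe of a gene (x axis) against another probe of the same gene (y axis), relative to the array's 75th percentile, with 1 point for each of the 13 arrays coloured by group. The points of IGF2 (r = 0.982) and of the near-identical IGFBP5 probes (r = 0.997) lie along a line, whereas the IGF1R points scatter (r = -0.02).

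The binding proteins went in different directions. IGFBP5, a binding protein that also sticks to extracellular matrix, had fetal levels of 1.38 to 2.24 with a median of 2.06 at base 306. Newborn levels were -0.43 to 0.77 with a median of 0.49, and all 7 lay below all fetuses. Newborn 3 was lowest, at -0.43, and fetal 4 was the lowest fetus, at 1.38. The mean went from 1.97 ± 0.328 (SD, n = 6) to 0.40 ± 0.421 (SD, n = 7), a change of -1.57 (SE 0.196, 95% interval -1.99 to -1.15, adjusted p = 2.4e-04). It was -1.61 within slide 1 and -1.56 within slide 2 (limma adjusted p = 0.0386 and 0.0429). The neighbour at base 305 gave -1.55 (SE 0.208, adjusted p = 5.0e-04), and the difference between both probes had an SD of 0.074 over the arrays. Within slides 1 and 2 the probe at base 305 gave -1.54 and -1.57 and did not pass alone (limma adjusted p = 0.0501 and 0.0566).

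IGFBP4, the classic substrate of the protease PAPPA, rose at both probes. At base 1769 fetal levels were 2.03 to 2.59 with a median of 2.48, and newborn levels were 2.75 to 2.97 with a median of 2.87, so that each newborn animal was above every fetus. The newborn animals lay close together, at 2.87 ± 0.064 (SD, n = 7), against 2.41 ± 0.199 (SD, n = 6) in fetuses. The change was 0.46 (SE 0.096, adjusted p = 0.0047). It was 0.45 within each slide, where it did not pass alone (adjusted p = 0.151 and 0.170), and 0.48 with normexp on the background of each spot (adjusted p = 0.424). At base 1768, the brighter probe, it was 0.41 (SE 0.108, adjusted p = 0.0157), with 5 of 7 newborn animals above all fetuses, and 0.47 and 0.26 within slides 1 and 2 (adjusted p = 0.132 and 0.410). With normexp on the background of each spot it was 0.43 (adjusted p = 0.534).

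**Figure D3:**
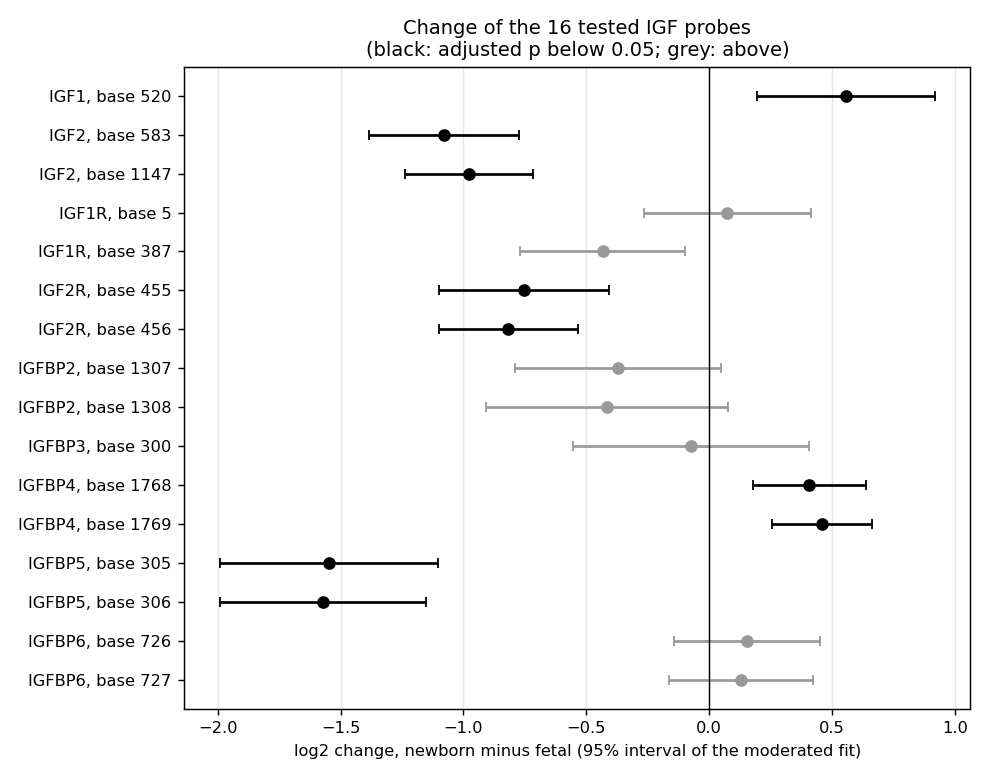
Log2 change, newborn minus fetal (x axis), of each of the 16 tested IGF probes (y axis), with the 95% interval of the limma fit; black marks probes past the threshold and grey the others. The IGFBP5, IGF2 and IGF2R probes lie left of 0 and the IGFBP4 and IGF1 probes right of it, with IGFBP5 farthest out at -1.57 and -1.55.

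For IGFBP2, which is abundant in fetal blood, the changes were -0.37 at base 1307 (SE 0.196, 95% interval -0.79 to 0.05, adjusted p = 0.185) and -0.42 at base 1308 (SE 0.231, adjusted p = 0.203). Its fetal levels at base 1307 were 0.45 to 1.36 and its newborn levels -0.14 to 1.04, with newborn 3 lowest. IGFBP6, which binds IGF2 in preference to IGF1, was at 3.12 to 3.44 in fetuses and 2.76 to 3.82 in newborns at base 727. The difference was 0.13 (SE 0.138, 95% interval -0.17 to 0.42, adjusted p = 0.518), with 0.38 within slide 1 and -0.11 within slide 2. Newborn 6 was the lowest animal for IGFBP6, at 2.76, and newborn 3 the highest, at 3.82.

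IGFBP3, the main carrier of IGF in adult blood, was dim here, with processed signals of 29.2 to 108 units. Its levels were -3.04 to -1.56 in fetuses and -2.98 to -1.75 in newborns, a difference of -0.07 (SE 0.224, 95% interval -0.55 to 0.40, adjusted p = 0.833). This difference changed sign without fetal 3 (0.07) or newborn 5 (0.03). Changes within that interval could not be told from none at this probe. IGFBP1, a binding protein made mainly by the liver, gave signals of 2.06 to 9.37 units at its 3 probes, and no fold is given for it.

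The opposite changes of IGFBP5 and IGFBP4 were set against each other within each array, where the scaling between arrays drops out. The level of the brightest IGFBP5 probe minus that of IGFBP4 was -0.99 to -0.10 in fetuses and -3.48 to -2.10 in newborns. Its mean went from -0.56 ± 0.315 (SD, n = 6) to -2.54 ± 0.486 (SD, n = 7), a shift of -1.98 (exact permutation test over 1716 arrangements, two-sided, p = 0.0012, the smallest these arrangements allow, adjusted over 2 such differences to 0.0023). The arrangements treat the 13 arrays as independent, although the labels give 9 animals 4 shared numbers of unexplained meaning. IGFBP5 and IGFBP4 were taken up because their opposite directions were already known from these same data. The p-value is therefore no independent support for the shift, and only its size is described. The fall of IGF2 was likewise compared with that of its clearing receptor. IGF2 minus IGF2R was 5.78 to 6.21 in fetuses and 5.43 to 6.26 in newborns. The shift was -0.16 (exact permutation test, two-sided, p = 0.316, adjusted 0.316), so a difference between both falls was not detected with the processed signal. It passed with the background corrected from the median of each array (-0.36, exact permutation test, adjusted p = 0.0466) and in the authors' series matrix (-0.54, exact permutation test, adjusted p = 0.0035).

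**Figure D4:**
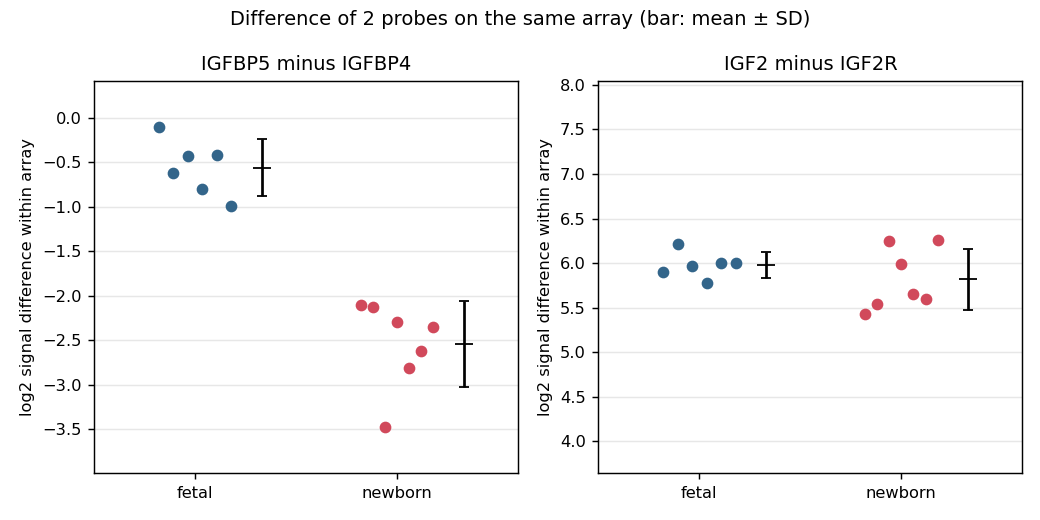
Difference in log2 signal between 2 probes on the same array (y axis), IGFBP5 minus IGFBP4 and IGF2 minus IGF2R, in fetal and newborn animals, with 1 point for each animal and the bar at the mean ± SD. The first difference runs from -0.99 to -0.10 in fetuses and from -3.48 to -2.10 in newborns, and the second overlaps between the groups.

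Females and males were compared because the sexes were unequally spread over the groups. A difference between the sexes in the change from fetus to newborn passed at 0 IGF probes and at 0 of the 10258 probes in limma, where 507 had an unadjusted p under 0.05. Only 2 fetuses were female, which limits this comparison. IGF1R at base 387 had the smallest p of the family. It changed by -0.74 in females and by -0.06 in males, a difference of -0.68 (SE 0.231, limma adjusted p = 0.975). Newborn males lay at 0.35, 0.35 and 0.69 there, and newborn females between -0.44 and 0.11. How many of all probes separate newborn males from newborn females was not counted. At base 5 of IGF1R the change was -0.10 in females and 0.20 in males. IGFBP2 was higher in females by 0.48 at base 1307 and 0.59 at base 1308 with age in the model (adjusted p = 0.999 for both), a comparison that 0.00975% of all tested probes passed. With sex as a covariate, all 9 calls of the family held.

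Of 67 further genes listed for IGF release, growth hormone and insulin, and signalling below the receptor, 11 were on the array by name and 7 were tested. Of these 0 rose and 2 fell, with a median change of 0.0007, while 24.4% of the 561 named genes tested passed. SLC2A4, the insulin-responsive glucose transporter GLUT4, had levels of 4.43 to 4.73 in fetuses and 3.65 to 4.42 in newborns and fell by 0.68 (SE 0.130, adjusted p = 0.0030). MMP2, a matrix protease that can cleave binding proteins, was at -1.48 to -1.07 and -2.28 to -1.23 and fell by 0.75 (SE 0.150, adjusted p = 0.0039). The kinase AKT1 (0.40, adjusted p = 0.0903), the lysosomal protease CTSD (-0.41, adjusted p = 0.0898) and the growth hormone receptor GHR (0.0007, adjusted p = 0.998) did not pass, nor did RPS6 and BAD. PAPPA, GH, KLK1 and MMP9 were not above background on enough arrays to be tested. Of 20 listed imprinted growth genes, 3 were on the array. Among them IGF2 and IGF2R are the members described above, so their falls say nothing further about imprinted genes. The only other gene was CDKN1C, a cell cycle inhibitor that lies in the same imprinted region as IGF2 in mammals studied. CDKN1C fell (log2 change -1.15, SE 0.292, limma adjusted p = 0.0125), and 50 of the 561 named genes tested fell. Its groups overlapped, at 2.28 to 3.38 in fetuses and 1.14 to 3.24 in newborns.

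Among the protein-coding genes of the RefSeq gene table, ordered by position, IGFBP5 is next to IGFBP2, and IGFBP1 next to IGFBP3. Of the first neighbours, IGFBP5 fell and IGFBP2 did not pass. IGF2 lies next to INS.

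In bulk tissue, fewer cells of a type and less RNA per cell cannot be told apart, and markers of other cell types moved between the groups as well. For scale, of the 561 named genes tested 50 were lower in newborns and 87 higher. Of 5 tested endothelial markers 0 rose and 3 fell, namely FLT1, PECAM1 and KDR, while TEK was too rarely above background to be tested. The mean log2 level of the 5 tested markers was -0.90 to -0.59 in fetuses and -1.22 to -0.79 in newborns. Both tested lymphocyte markers fell, CD3E by 2.07 (adjusted p = 0.0023) and CD3D by 1.63 (adjusted p = 0.0018). Their mean level was -3.40 to -1.88 in fetuses and -5.57 to -4.00 in newborns. CD3E was above background on 6 fetal and 5 newborn arrays and CD3D on 5 and 2, and CD4 was not above it on any. Both erythroid markers, HBB and AHSP, fell, with mean levels of 0.21 to 2.86 and -1.04 to 0.66. AHSP was above background on 5 fetal and 2 newborn arrays. Of 4 tested macrophage markers 3 rose, with mean levels of -3.80 to -2.85 and -2.85 to -1.48. FCGR1A was above background on 2 fetal and 7 newborn arrays, and LYZ on 3 and 3, while ITGAM was not above it on any. Of 5 fibroblast and matrix markers 0 rose and 1, COL3A1, fell, with mean levels of 2.37 to 2.60 and 2.01 to 2.65. WT1 of the epicardium fell by 0.50 (adjusted p = 0.0297), while CNN1 of smooth muscle rose (1.83, adjusted p = 0.0073). Each was the only listed marker of its cell type on the array. Of 2 tested skeletal muscle markers MYOD1 rose (0.43, adjusted p = 0.0477) and TNNC2 did not pass (1.11, SE 1.27, adjusted p = 0.551), with a wide spread of -0.72 to 3.84 in fetuses and -0.46 to 5.30 in newborns. Their part in the changes of the IGF family was not tested.

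The genes whose levels ran most alike with each IGF gene were taken from 545 named genes, each by its brightest probe, as Pearson correlations over the 13 arrays. Since the same arrays and the same 2 groups enter all of them, they describe shared patterns only. For IGF2 they were the glucose transporter SLC2A1 (0.883), IGF2R (0.864), SLC2A4 (0.863), IGFBP5 (0.849) and YY1 (0.841). For IGF2R they were CD3E (0.904), SLC2A1 (0.883), BCKDHA (0.877), IGF2 (0.864) and IGFBP5 (0.863). For IGFBP5 they were CD3E (0.947), PECAM1 (0.902), PTGDS (0.886), IGF2R (0.863) and CD3D (0.856). Thus IGF2, IGF2R and IGFBP5 were among the 5 genes most like each other, except that IGF2 was not among those of IGFBP5. CD3E was above background on only 5 newborn arrays and CD3D on 2, so their correlations rest in part on values not above background. For IGFBP4 the list began with CD40 (0.882), ACTG1 (0.873) and TNF (0.861), and for IGF1 with TGFBR2 (0.834) and FCGRT (0.828).

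With the group means taken out, so that only differences among animals of a group count, most of these partners changed. IGFBP5 kept CD3E (0.834) and PECAM1 (0.697). IGF2 was most like RASSF1 (0.819), IGF2R most like EPAS1 (0.880), and IGF1 most like IRF2 (0.884). IGF1R at base 387, the brighter of its disagreeing probes, stayed closest to SMAD2, with 0.823 over all levels and 0.821 within groups. IGFBP6 stayed closest to ARPC5L, with 0.842 and 0.869. The correlation of IGF2 with IGF2R was 0.262 within groups, 0.784 among the fetuses alone and -0.130 among the newborns. Within groups it was 0.008 for IGF2 with IGFBP5 and 0.309 for IGF2R with IGFBP5.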

How the data were processed

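Spot intensity in the deposited scanner files comes from Agilent Feature Extraction 10.1.1.1, per the file headers, and is background-subtracted and detrended within the array, with no normalization between arrays. The labels name Cy3 in the protocol and Cy5 in the label field, and the files hold a single green channel. The values of the authors' deposited series matrix look like log2 signals, for 7041 probes and of unstated normalization, with column medians of 8.69 to 8.70. It was not centred by gene, and each column correlated best with its own array (r at least 0.986). It served as an alternative.

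The log2 processed signal minus each array's 75th percentile was analysed. Control spots and spots marked as outliers were left out, and spots of a probe averaged. Probes well above background on at least 6 arrays were tested with limma 3.58.1 (lmFit, eBayes; R 4.3.3, files read by version 1.17.8 of data.table), two-sided, with Benjamini-Hochberg adjustment over 10258 probes at 0.05. Where 2 values of an array were compared, an exact permutation test was used. Each member is reported at every probe; a gene in a list is represented by its brightest tested probe, and listed genes are named if past the threshold or with the smallest p. Names came from the files (names and descriptions) and RefSeq's gene list for the assembly ARS-UI_Ramb_v3.0, whose coordinates were used only to order neighbouring genes.

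Members and lists were chosen with earlier results of these data known. The steps were tested on simulated data. Labels give 9 animals 4 shared numbers of unexplained meaning, so p-values measure the spread between these samples. The design text speaks of 7 fetuses and other heart regions, which were not analysed here. Alternatives were other background corrections (normexp with an offset of 50), scalings, filters, the series matrix, models with slide, sex, replicate number or animal number, a trended fit, the mean of a gene's probes, and each array left out. Plots used matplotlib 3.10.9, numpy 2.4.6 and pandas 2.3.3 under Python 3.11.15.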

Additional observations from a re-analysis of the deposited data

Results flagged for a closer look

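Values were searched in 42 groups, 1 for each age group of each probe or within-array difference. By Dixon's criterion 2 of them held an animal far from the others, which chance gives for about 1 group in 20. Fetal 1 was low for IGF2 at base 583, at 3.01, with the nearest fetus at 3.64. Fetal 6 was high for IGFBP6 at base 726, at 3.49, with the nearest fetus at 3.23.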

How the results depend on the processing

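All 9 family calls kept their direction in all 28 alternatives run on probes, and 19 of these kept every call. With normexp on the background of each spot, 48 probes passed in all and 2 of the family, both of IGFBP5. The cause was not tested. Within slide 1, with fewer arrays, 356 passed and 3 of the family, and within slide 2, 23 and 2. IGFBP5 minus IGFBP4 was -2.08 and -1.82 there (exact permutation tests, adjusted p = 0.114 and 0.267), where the smallest p possible is 0.0571 and 0.133. IGF2 minus IGF2R passed with normexp on the array's median background (-0.36) and in the series matrix (-0.54), and the cause was not tested. IGF1 was lost without the filter on dim probes as well (adjusted p = 0.0528). IGF1R at base 387 passed with the filter on all arrays (adjusted p = 0.0488) and the trended fit (adjusted p = 0.0482). Without 1 array each, 1728 to 3117 probes passed in all (the most without newborn 6), 8 to 10 of the family, and the differences ranged from -2.07 to -1.82 and from -0.23 to -0.09. Signs turned only in members that did not pass: IGFBP3 with normexp on the median background (0.00087), without fetal 3 (0.069) and without newborn 5 (0.031), IGF1R at base 5 within slide 2 (-0.29) and without fetal 1 (-0.011, against up to 0.157 without newborn 6), and IGFBP6 within slide 2 (-0.098 and -0.112). Replicate numbers did not pair the arrays (correlation of deviations -0.071 to 0.054 over 6 pairs, 1 of 6 fetal arrays closest to its own number); with the replicate block 1327 probes passed in all and 9 of the family. The 13 arrays limit precision, and IGFBP1 was not above background on any of them.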
